A study of Mus musculus with 6 samples.

Results

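Lipolysis is the stepwise release of fatty acids from stored triglyceride, and the genes described here are the lipases that carry it out, the proteins that switch them on or off, and the perilipins that coat the lipid droplet. The 10 genes, Ces1d, Pnpla2, Lipe, Mgll, Lpl, Abhd5, G0s2, Plin2, Plin4 and Plin5, were taken by name from a table of 54532 genes, and all 10 had a mean of at least 0.5 FPKM (fragments per kilobase of gene, scaled to library size) over the 6 hearts, the level needed to enter the test. Compared with control hearts, 6 of them were lower in hearts with a cardiomyocyte deletion of Mrps5 (Ces1d, Lpl, Plin4, Mgll, Lipe and Plin5), 1 was higher (Abhd5) and 3 did not pass the test (Pnpla2, G0s2 and Plin2). Over all genes tested, 17.0% were lower and 16.3% higher. The changes of the 10 genes ranged in size from Ces1d, left at 27.0% of the control mean, to Abhd5, at 137% of it.

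The data come from RNA-seq of 6 mouse hearts. All 6 mice carried loxP-flanked Mrps5 alleles (Mrps5 fl/fl). By the labels, all received tamoxifen at 45 mg per kg per day on 5 days, starting at 8 weeks of age. The labels give the heart as taken 12 weeks later, and the study's results also place this RNA-seq 12 weeks after tamoxifen. The study's methods speak instead of mice 12 weeks old, a wording not reconciled with the rest. The 3 control mice (Ctrl) had no Cre. The 3 conditional knockouts (cKO; Mrps5 fl/fl; MCM) had in addition MerCreMer, a Cre recombinase that tamoxifen activates, under the αMHC promoter, which is active in cardiomyocytes; since no Ctrl heart carried the transgene, its presence and the deletion of Mrps5 cannot be told apart. The labels name the tissue as heart, and the study's methods as ventricle. MRPS5 is a protein of the mitochondrial ribosome, and the comparison asks how genes of lipid storage and release differ once its gene is deleted in cardiomyocytes.

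The heart draws most of its energy from fatty acids. LPL frees them from circulating lipoproteins at the capillary surface, whereas fatty acids already inside the cardiomyocyte pass through the lipid droplet, from which ATGL (encoded by Pnpla2), hormone-sensitive lipase (Lipe) and monoglyceride lipase (Mgll) release them in successive steps. The droplet's perilipin coat and the ATGL partners ABHD5, a coactivator, and G0S2, an inhibitor, set how fast this runs.

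Each heart had 15989322 to 24875499 reads assigned to annotated genes, worked back from the FPKM values, with 20410 to 21675 genes detected. Reads not assigned to a gene are not part of these totals. Mrps5 itself measured 5.20, 6.45 and 6.33 FPKM in Ctrl and 1.12, 1.23 and 1.31 FPKM in cKO hearts, which fits the labels. The transcripts of 4 Y-linked genes summed to 0 FPKM in cKO replicate 2, with Xist at 10.7 FPKM, against sums of 30.4 to 35.2 FPKM and Xist of at most 0.127 FPKM in the other hearts, so that cKO replicate 2 differed in sex from the rest; its counts also stood further from those of its group (mean chi-square per gene 47.3 and 44.9) than any other replicate pair (at most 18.3). Without it, Ces1d (log2 fold change -1.70) and Lpl (-1.18) kept their calls, as did Mgll, Plin4, Plin5 and Abhd5, and Lipe lost its call (-0.35; limma adjusted p = 0.0553). Summed, the markers of atrial cardiomyocytes were highest in Ctrl replicate 1 and cKO replicate 3 (FPKM 2052 and 1652, range elsewhere 128 to 1348), and so were those of adipocytes. The atrial sum includes Nppa, which the study uses as a hypertrophy marker and which was highest in cKO replicate 2. Of all 12944 genes tested, 16.3% were higher and 17.0% lower in cKO (limma, adjusted p under 0.05), and the values of the groups did not overlap for 51.2%. After scaling without the mtDNA-encoded transcripts the same test called 2649 genes higher and 1621 lower, in place of 2110 and 2205.

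Among the 10 genes, 6 lower and 1 higher thus stand beside shares of 17.0% and 16.3% over all genes, and 8 without overlap beside 51.2%. Their median log2 fold change was -0.50, against -0.016 over all genes tested. The 10 genes were chosen with earlier results of these data known, so these counts are not an independent test. These directions are relative to the library size used in FPKM, which had already been scaled between samples. That size was 0.913 to 0.980 times the total of recovered reads in Ctrl and 1.06 times it in cKO hearts. The 8 cardiomyocyte markers examined had a mean log2 change of -0.62, 5 of them passing as lower, and when each heart was set to their mean, a scaling chosen after seeing the data, the median of all genes moved from -0.016 to 0.60 and Pnpla2, Lipe, Mgll and Plin5 changed sign, while Ces1d and Lpl remained lower and Abhd5 higher. With this scaling 8661 of all genes were called higher and 181 lower. In bulk tissue, fewer cells of a type and less RNA per cell cannot be told apart. The part that the marker change plays in the results was not tested.

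**Figure D1:**
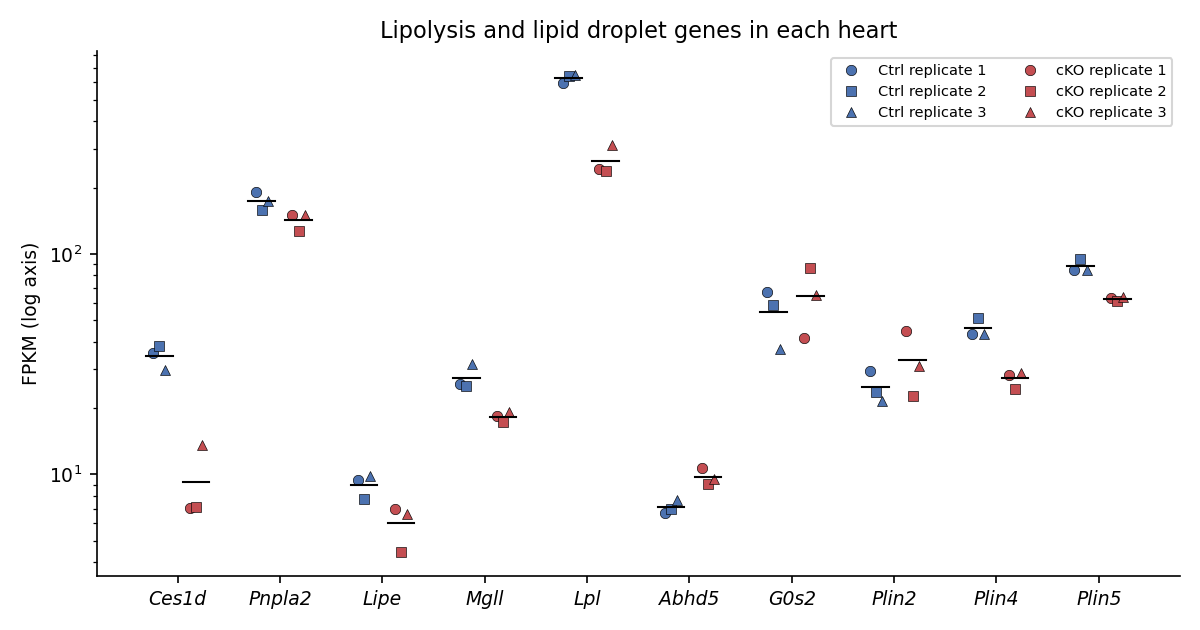
FPKM (log axis) of the 10 genes in each of the 6 hearts, Ctrl in blue and cKO in red, with the replicate number given by the symbol and the group mean by a bar. Ctrl and cKO values do not overlap for 8 genes and overlap for G0s2 and Plin2. Over all genes tested, they do not overlap for 51.2%.

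On this length-scaled measure, the mean level in Ctrl hearts fell in the order Lpl, Pnpla2, Plin5, G0s2, Plin4, Ces1d, Mgll, Plin2, Lipe and Abhd5. Neighbours whose Ctrl values overlapped were G0s2 and Plin4, Ces1d and Mgll, and Mgll and Plin2. In cKO hearts Lpl and Pnpla2 still led. Ces1d went from rank 6 to rank 9 and Plin2 from rank 8 to rank 5.

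Ces1d encodes a carboxylesterase of the endoplasmic reticulum that hydrolyses triglyceride, best known from liver and adipose tissue. Its gene (ENSMUSG00000056973, chr8:93166068-93197838 of GRCm38, minus strand) has 14 exons in its longest protein-coding transcript and lies in a cluster of near relatives, so reads could in principle be shared. No window of 150 bases in that transcript, of 1855, occurred in the transcript of another gene. The longest run of coding sequence shared with another Ces1 gene was 66 bases, with Ces1b, and is shown because it marks how short the stretch is over which the pair of genes cannot be separated (coding bases 979 to 1044 of Ces1d, from the GENCODE transcript, read 5′ to 3′).
Ces1d and Ces1b: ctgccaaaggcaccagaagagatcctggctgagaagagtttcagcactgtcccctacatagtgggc

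Ces1d measured 35.4, 38.2 and 29.7 FPKM in Ctrl hearts (replicates 1, 2 and 3, the order used throughout) and 7.08, 7.10 and 13.7 FPKM in cKO hearts. The groups were far apart, with cKO replicate 3 closest to the Ctrl hearts. The means were 34.4 ± 4.35 and 9.28 ± 3.79 FPKM (SD, n = 3 each), from 284 to 1882 reads per heart, and the change on the log2 scale was -1.84 (SE 0.24; limma adjusted p = 0.00269). It was the largest change of the 10 genes. The study had picked Ces1d as a candidate from its RNA-seq of these hearts partly for a large decrease, so its size here is not independent support. Outside this RNA-seq, the study also reported lower Ces1d in cardiomyocytes with Mrps5 knocked down, in pressure-overloaded mouse hearts and in human dilated cardiomyopathy. Adipocyte markers, 5 of 8 of which stayed below 1 FPKM in every heart, summed to 21.6, 5.14 and 6.18 FPKM in Ctrl and 4.68, 2.36 and 11.5 FPKM in cKO hearts, and none was called. Without Ctrl replicate 1 and cKO replicate 3, the hearts highest in these markers, the change in Ces1d was -2.10 (limma adjusted p = 0.00739). Hepatocyte markers were below 1 FPKM in all hearts, with Serpina1c and Fga at 0.

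Ces1d was almost the whole carboxylesterase signal of the control heart. Of the 17 other genes of the family, 16 were below 1 FPKM in every heart and 4 had no read in any. Ces1e lay at 0.168 to 0.359 FPKM in Ctrl and 0.0726 to 0.108 FPKM in cKO, Ces1f did not exceed 0.0958 FPKM, and Ces1g was at 0. Only Ces2g was high enough to test, and its means of 0.856 and 1.57 FPKM did not pass (limma adjusted p = 0.134). Ces1d made up 94.6%, 96.8% and 95.1% of the summed family FPKM in the Ctrl hearts and 68.6%, 76.2% and 87.5% in the cKO hearts. The sum of the 17 other genes was 1.27 to 2.03 FPKM in Ctrl and 1.96 to 3.24 FPKM in cKO, so no relative was present in cKO hearts at a level near the FPKM that Ces1d had lost.

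Pnpla2 (chr7:141455198-141460743, plus strand, 9 exons) encodes ATGL, the lipase of the first step from triglyceride to diglyceride. It was the most abundant intracellular lipase here, at 191, 159 and 174 FPKM in Ctrl and 151, 127 and 149.6 FPKM in cKO hearts. The lowest Ctrl heart stood just above the highest cKO heart. The means of 175 ± 16.4 and 142 ± 13.6 FPKM gave a log2 fold change of -0.30 with a 95% interval of -0.55 to -0.043, which did not pass after adjustment over all genes (limma adjusted p = 0.0728). A decrease to 81.4% of Ctrl is thus neither called nor shown to be absent.

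Lipe (chr7:25379527-25398710, minus strand, 10 exons) encodes hormone-sensitive lipase, which acts mainly on diglyceride. It was at 9.40, 7.77 and 9.83 FPKM in Ctrl and 7.01, 4.46 and 6.58 FPKM in cKO hearts. All cKO hearts were below all Ctrl hearts, cKO replicate 2 the furthest. The change on the log2 scale was -0.53 (SE 0.16; limma adjusted p = 0.0443), close to the threshold, and 5 of the 6 fits that leave out a heart lost the call (adjusted p up to 0.129). An antisense gene covers 15.6% of the Lipe exon bases, itself at a mean of 0.0698 FPKM.

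Mgll (chr6:88724412-88828360, plus strand, 8 exons) encodes monoglyceride lipase, which frees the last fatty acid and glycerol. It was at 25.7, 25.1 and 31.6 FPKM in Ctrl and 18.4, 17.4 and 19.2 FPKM in cKO hearts. The cKO values were close together and all below Ctrl. The mean fell from 27.4 ± 3.59 to 18.3 ± 0.932 FPKM, which is -0.55 in log2 fold change (SE 0.10; limma adjusted p = 0.00821). Pnpla2, Lipe and Mgll together summed to 226, 191 and 216 FPKM in Ctrl and 176, 148 and 175 FPKM in cKO hearts. These sums did not overlap, and the difference of the means, -44.6 FPKM, had an exact permutation p of 0.1, two-sided, the smallest that 3 against 3 hearts allow. Most of each sum was Pnpla2, which did not pass by itself. Its means were 175 and 142 FPKM, against means of the sum of 211 and 167 FPKM.

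Lpl (chr8:68880491-68907448, plus strand, 10 exons) encodes lipoprotein lipase, made in cardiomyocytes and moved to the capillary wall. It was the most abundant transcript of the 10, at 595, 639 and 651 FPKM in Ctrl and 243, 238 and 313 FPKM in cKO hearts, from 43153 to 164912 reads. The highest cKO heart was far below the lowest Ctrl heart. The mean fell from 628 ± 29.4 to 265 ± 42.0 FPKM, 42.2% of Ctrl, with a log2 fold change of -1.25 (SE 0.12; limma adjusted p = 0.00121). Like Ces1d, Lpl kept its direction and its call in all 16 alternative fits.

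Of 15 genes that act with LPL or handle lipoproteins, 8 were tested, 1 was higher and 3 lower, with a median of -0.22, beside 16.3% higher and 17.0% lower among all genes tested. Gpihbp1, the endothelial protein that holds LPL at the capillary surface, fell from 47.1 ± 5.79 to 26.7 ± 2.98 FPKM (limma adjusted p = 0.00394). Vldlr, a receptor for triglyceride-rich lipoproteins, fell from 46.0 ± 4.64 to 13.9 ± 5.15 FPKM (limma adjusted p = 0.00269). Angptl4, a secreted inhibitor of LPL, was higher, at 4.34, 1.81 and 3.41 FPKM in Ctrl and 16.8, 6.07 and 9.88 FPKM in cKO hearts, with a log2 fold change of 1.46 (SE 0.36; limma adjusted p = 0.0224). Its cKO values were widely spread but did not overlap Ctrl. Beside the change in Gpihbp1, 4 of 6 endothelial markers were lower and their summed FPKM was 120.4 to 139.9 in Ctrl and 78.2 to 93.2 in cKO hearts, and their part in the result was not tested.

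Abhd5 (chr9:122351608-122381524, plus strand, 7 exons) encodes the coactivator of ATGL, also called CGI-58. It was the gene that rose, from 6.68, 6.97 and 7.68 FPKM in Ctrl to 10.7, 9.05 and 9.50 FPKM in cKO hearts. All cKO hearts were above all Ctrl hearts. On the log2 scale it rose by 0.40 (SE 0.088; limma adjusted p = 0.0139). The call was lost without Ctrl replicate 1 (limma adjusted p = 0.0510) and without Ctrl replicate 2 (limma adjusted p = 0.0504). An antisense gene at a mean of 0.00329 FPKM covers 15.9% of the Abhd5 exon bases.

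G0s2 (chr1:193272161-193273217, minus strand, 2 exons) encodes a small inhibitor of ATGL. It was at 67.3, 58.8 and 37.2 FPKM in Ctrl and 41.5, 86.7 and 64.9 FPKM in cKO hearts. The groups overlapped over most of their range. The log2 fold change of 0.22 had a 95% interval of -0.51 to 0.95 (limma adjusted p = 0.614), wide enough to hold a change in either direction, and it was -0.024 without cKO replicate 2 and -0.029 without Ctrl replicate 3. The coactivator-to-inhibitor ratio, log2 of Abhd5 over G0s2 FPKM, was -3.33, -3.08 and -2.27 in Ctrl and -1.96, -3.26 and -2.77 in cKO hearts. The ratio therefore did not separate the groups, although Abhd5 alone did, with a difference of 0.23 and an exact permutation p of 0.6, two-sided.

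**Figure D2:**
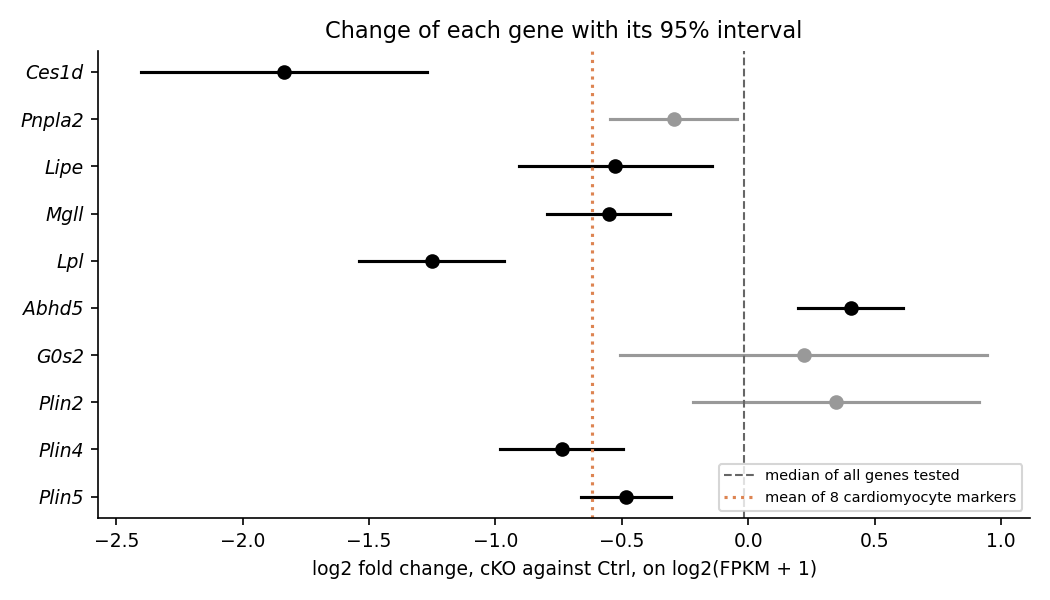
Log2 fold change of cKO against Ctrl for each of the 10 genes on the log2(FPKM + 1) scale, with its 95% interval, black where the limma adjusted p is under 0.05 and grey elsewhere. The dashed line is the median of all genes tested (-0.016) and the dotted line the mean of 8 cardiomyocyte markers (-0.62); Ces1d and Lpl have intervals wholly to the left of both, and Abhd5 wholly to the right.

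Of the 3 perilipins, Plin5 and Plin4 passed as lower and Plin2 did not pass. Plin5 (chr17:56111601-56117596, minus strand, 9 exons), the perilipin of oxidative tissues, was at 84.8, 94.8 and 84.6 FPKM in Ctrl and 63.0, 60.9 and 64.1 FPKM in cKO hearts. The cKO hearts lay within a narrow band below Ctrl. The change on the log2 scale was -0.48 (SE 0.076; limma adjusted p = 0.00457). Plin4 (chr17:56100591-56109803, minus strand, 9 exons), known from adipose tissue and muscle, was at 43.5, 51.4 and 43.5 FPKM in Ctrl and 28.3, 24.5 and 29.0 FPKM in cKO hearts. Again no cKO heart reached the Ctrl range. The mean fell from 46.1 ± 4.58 to 27.2 ± 2.44 FPKM, which is -0.74 in log2 fold change (SE 0.10; limma adjusted p = 0.00309).

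Plin2 (chr4:86648386-86670060, minus strand, 8 exons), found on droplets of most cell types, was at 29.5, 23.7 and 21.5 FPKM in Ctrl and 44.9, 22.7 and 31.0 FPKM in cKO hearts. cKO replicate 1 was above every other heart and cKO replicate 2 within the Ctrl range. The log2 fold change of 0.35 (95% interval -0.22 to 0.91; limma adjusted p = 0.303) did not pass. It rested on single hearts, being 0.10 without cKO replicate 1 and 0.58 without cKO replicate 2. Whether Plin2 differs in its change from Plin4 and Plin5 was not tested gene against gene.

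Summed over the 3 genes, perilipin FPKM was 158, 169.9 and 149.6 in Ctrl and 136, 108 and 124 in cKO hearts (exact permutation p = 0.1, two-sided). The share of each gene in the sum was compared as well. Plin2 gave 15.7% ± 2.64 of it in Ctrl and 26.3% ± 6.09 in cKO hearts, and Plin4 29.0% ± 1.36 and 22.3% ± 1.32, in each case without overlap but with the smallest p the design allows (exact permutation p = 0.1, two-sided), so no change of composition is called. The Plin5 share of 55.4% ± 1.46 and 51.4% ± 5.07 overlapped (exact permutation p = 0.3, two-sided).

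**Figure D3:**
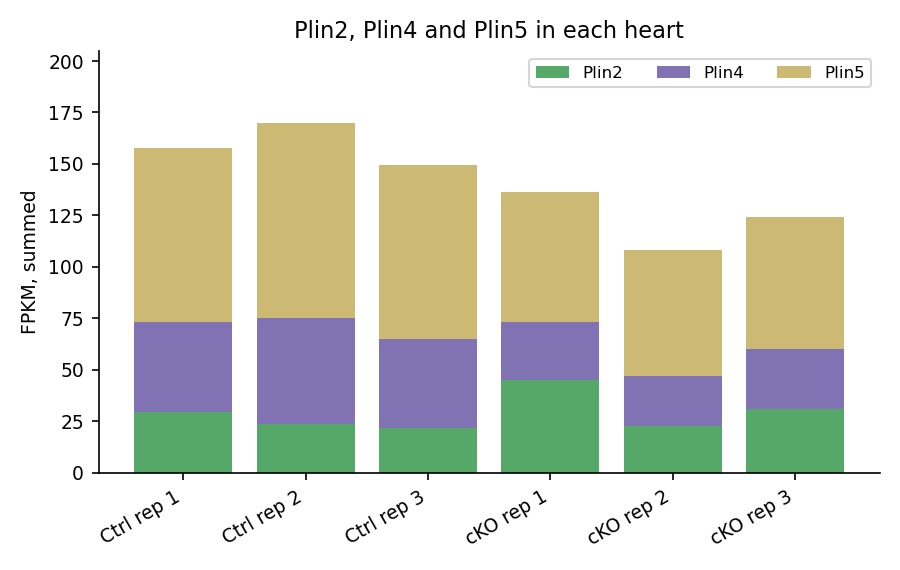
Stacked FPKM of Plin2, Plin4 and Plin5 in each heart (bars start at 0). The 3 cKO sums lie between 108 and 136 FPKM and the 3 Ctrl sums between 149.6 and 169.9 FPKM, and the Plin2 segment is tallest in cKO replicate 1.

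Of the perilipins outside this group, Plin3, which binds early droplets from the cytosol, was at 60.7, 79.6 and 78.0 FPKM in Ctrl and 32.8, 26.3 and 31.9 FPKM in cKO hearts. Its log2 fold change of -1.23 (SE 0.13; limma adjusted p = 0.00161) was larger in size than that of Plin4 or Plin5, though the differences between these genes were not tested. Plin1, the adipocyte perilipin, was below 1 FPKM in every heart and was not tested. Plin4, Plin5 and Plin3 lie on the same strand of chromosome 17, with 1797 bases between Plin4 and Plin5 and 159879 bases between Plin5 and Plin3.

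The sequences upstream of this neighbouring pair, Plin4 and Plin5, are shown because both genes were lower and lie next to each other, and that of Abhd5 because it was the gene that rose. They are from RefSeq on GRCm38.p6, each read 5′ to 3′ on the strand of its gene: Plin4 chr17:56109783-56110032 (minus), Plin5 chr17:56117597-56117798 (minus) and Abhd5 chr9:122351366-122351615 (plus). Capitals mark matches, on either strand, to CCAAT (which reads ATTGG on the opposite strand), to the GC box GGGCGG, and to the letters CCACCC of a KLF-type box. The last 21 bases shown for Plin4 and the last 8 for Abhd5 lie inside the annotated gene.
Plin4: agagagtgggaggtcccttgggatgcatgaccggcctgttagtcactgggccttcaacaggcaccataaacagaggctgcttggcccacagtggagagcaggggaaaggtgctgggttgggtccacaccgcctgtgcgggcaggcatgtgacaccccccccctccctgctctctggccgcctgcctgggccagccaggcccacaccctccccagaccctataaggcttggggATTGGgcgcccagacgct
Plin5: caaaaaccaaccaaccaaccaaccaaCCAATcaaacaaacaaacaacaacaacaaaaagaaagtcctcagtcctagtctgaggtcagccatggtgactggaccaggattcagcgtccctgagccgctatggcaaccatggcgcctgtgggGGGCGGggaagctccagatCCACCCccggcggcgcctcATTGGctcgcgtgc
Abhd5: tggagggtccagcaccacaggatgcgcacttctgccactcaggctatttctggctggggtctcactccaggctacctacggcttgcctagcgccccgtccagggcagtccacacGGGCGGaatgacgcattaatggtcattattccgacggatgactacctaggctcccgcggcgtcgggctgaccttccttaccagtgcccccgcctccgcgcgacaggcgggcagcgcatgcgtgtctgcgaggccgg
Plin4 thus held 1 CCAAT match and none of the other letters, Plin5 held CCAAT and CCACCC 2 times each, with 1 of the CCACCC matches in bases nearer the start that are not printed, and GGGCGG 1 time, and Abhd5 held 1 GGGCGG. The Plin4 match and the Plin5 match that is not printed lie inside the annotated genes. None of these matches overlapped another. Such matches are common: within the 250 bases before the start, 33.8% of 32851 promoter entries held CCAAT on either strand, 32.7% held GGGCGG and 28.1% held CCACCC. Of the 8 genes with an entry (all but Ces1d and Lpl), Lipe and Mgll held the E-box CACGTG, found in 6.02% of promoters, and none held TATAAA (12.4%) or the element that PPAR receptors bind, spelled as AGGTCA repeated after 1 base of any kind (0.0335%). That exact spelling is so rare that its absence from 8 genes says nothing about PPAR binding. Other spellings and more distant bases were not searched. The Lipe entry starts within the annotated Lipe gene, so all 250 bases searched for it, with the E-box, lie inside that gene.

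Genes that build and fill the droplet were examined from lists of known function, whose counts are to be read beside the 16.3% higher and 17.0% lower of all genes tested; with so few genes a list, nothing is called particular to it. Of 15 genes of the droplet coat and its formation, 13 were tested, 1 was higher and 4 lower (median -0.19). Fitm1 and Fitm2, which bind triglyceride in the endoplasmic reticulum as droplets form, fell from 81.5 ± 15.5 to 32.7 ± 5.47 FPKM and from 72.4 ± 3.06 to 41.9 ± 5.68 FPKM (limma adjusted p = 0.00272 and 0.00291). Of 18 genes of triglyceride synthesis, 15 were tested, 2 were higher and 3 lower (median 0.093), near those shares. Of the enzymes of the final step, Dgat2 fell from 148 ± 14.3 to 74.0 ± 8.46 FPKM (limma adjusted p = 0.00184), and Dgat1, at 6.56 ± 0.217 and 7.99 ± 1.07 FPKM, did not pass (limma adjusted p = 0.0983); the difference between them was not tested. Lpin1, a phosphatidate phosphatase, fell from 26.2 ± 7.01 to 11.7 ± 2.10 FPKM (limma adjusted p = 0.00801), and Gk, glycerol kinase, rose from 4.64 ± 0.0494 to 6.997 ± 0.838 FPKM (limma adjusted p = 0.00713).

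Of 17 other hydrolases of neutral lipid and their regulators, 13 were tested, 1 was higher and 3 lower (median -0.073). Abhd6, a further monoglyceride hydrolase, was the gene that rose, from 5.69 ± 0.199 to 10.9 ± 3.15 FPKM (limma adjusted p = 0.0137), while Mgll was lower. Fabp4 and Fabp5, carriers of fatty acids, fell from 197 ± 14.8 to 104.7 ± 12.3 FPKM and from 10.9 ± 0.373 to 7.49 ± 1.33 FPKM (limma adjusted p = 0.00212 and 0.0169). Fabp3, a carrier in the same list at a far higher level, was at 4950 ± 423 FPKM in Ctrl and 5105 ± 39.0 FPKM in cKO hearts. It did not pass (limma adjusted p = 0.742). Hilpda, an inhibitor of ATGL like G0S2, was at 3.58 ± 0.133 and 3.84 ± 0.484 FPKM and did not pass (limma adjusted p = 0.550).

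**Figure D4:**
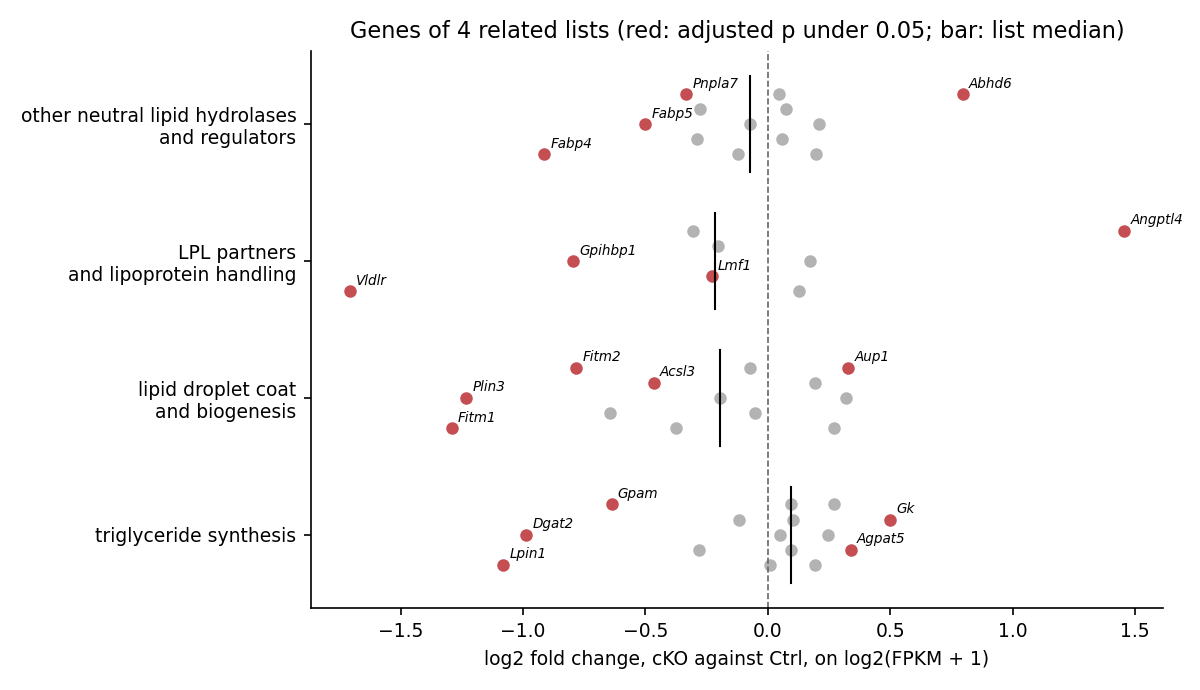
Log2 fold change (cKO against Ctrl, log2(FPKM + 1) scale) of each tested gene in 4 related lists, red and named where the limma adjusted p is under 0.05, with the list median as a vertical bar. Values run from -1.71 for Vldlr to 1.46 for Angptl4.

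The protein-coding genes whose levels followed Ces1d most closely over the 6 hearts were found by the root mean square distance between centred log2(FPKM + 1) values, among 11420 genes. They were Vldlr (distance 0.081), Lrtm1 (0.17), Il15, a cytokine (0.18), Rpl3l (0.19) and Gpcpd1 (0.20). All 5 fell to about the same extent as Ces1d, with log2 fold changes of -2.11 for Rpl3l, a ribosomal protein of striated muscle, to -1.66 for Gpcpd1. In each of them, as in Ces1d, cKO replicate 3 was the highest cKO heart and Ctrl replicate 2 the highest Ctrl heart, a likeness for which they were chosen. Vldlr, at 44.9, 51.0 and 41.9 FPKM in Ctrl and 11.04, 10.7 and 19.8 FPKM in cKO hearts, also belongs to the LPL list above.

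**Figure D5:**
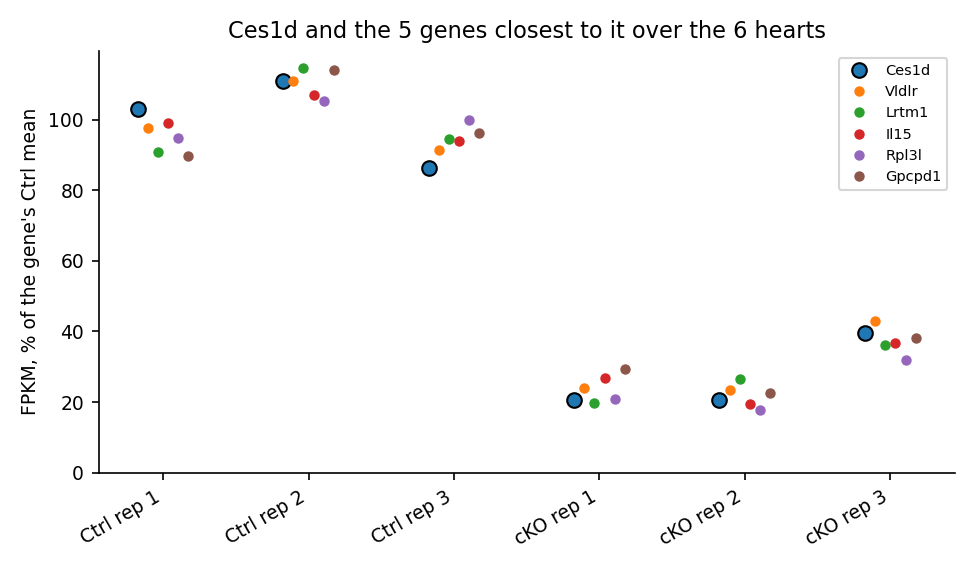
FPKM of Ces1d and of the 5 genes closest to it, as a percentage of each gene's Ctrl mean, in the 6 hearts. Within the cKO group all 6 genes are highest in replicate 3.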

How the data were processed

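Group and replicate number came from the sample titles. The authors prepared poly-A libraries, sequenced paired ends, aligned with HISAT2 2.0.5, counted reads per gene with featureCounts 1.5.0-p3 (per the labels' processing notes) and deposited FPKM values, 1 column per heart, computed from read count and gene length. Gene length, an other gene-level value, was deposited beside them and taken as given. Strand and multi-mapping settings were not given in the sources used here. The processing notes name mm9, but of 54409 gene identifiers shared with GENCODE M21, 53499 had identical start and end on GRCm38, so that build is named. The authors' own test used DESeq2 on read counts.

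FPKM multiplied by gene length gave whole reads for 100% of values (tolerance 0.01 of a read). The library size used in FPKM was 0.913 to 0.980 times the recovered total in Ctrl and 1.06 times it in cKO hearts, so values were already scaled between samples. Replicate hearts all differed by more than counting noise (mean chi-square per gene 14.3 to 18.3, but 47.3 and 44.9 in the pairs with cKO replicate 2). The labels do not say more of the animals. The study's reporting summary gives all mice as male, which the Y-linked and Xist values of cKO replicate 2 contradict, and the reason was not tested. P-values measure the spread between these hearts. Counting error is small at these depths and is contained in that spread.

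The scale was log2(FPKM + 1), on which changes of low genes are understated, and the test limma 3.58.1 in R 4.3.3 (lmFit, eBayes with trend, two-sided) over the 12944 genes that averaged 0.5 FPKM or more, Benjamini-Hochberg adjusted, threshold 0.05. This keeps the study's comparison of the groups without covariates. Sums and ratios per heart were compared by exact permutation. The fit was tested on simulated data. Named genes are the 10 members, up to 3 genes of each list with the smallest adjusted p, a set of related genes named whatever their values, and the 5 closest to Ces1d. The members and lists were chosen with earlier results of these data known. Promoters came from a RefSeq table (8 of 10 genes matched), transcripts from GENCODE. Alternatives were another pseudocount (0.1), filters, scalings, voom on the recovered reads, eBayes without trend, a replicate block and leaving out each heart.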

Additional observations from a re-analysis of the deposited data

How the results depend on the processing

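Over 16 alternatives, Ces1d (log2 fold change -2.12 to -1.22) and Lpl (-1.42 to -0.63) kept direction and call, and Mgll, Plin4 and Plin5 lost theirs only with scaling to cardiomyocyte markers, added after seeing the data. That scaling gave 0.066 for Mgll, -0.12 for Plin4, 0.14 for Plin5, 0.093 for Lipe, 0.32 for Pnpla2, 0.84 for G0s2 and 0.96 for Plin2, the last 2 passing, with 3 members higher and 2 lower. It adds the same amount to every gene by construction. Lipe did not pass with no filter (-0.53), median-of-ratios scaling (-0.50), scaling without mtDNA-encoded genes (-0.45) or without both hearts highest in atrial and adipocyte markers (-0.56, also added after seeing the data). Abhd5 did not pass without those hearts (0.38), which left 0 members higher and 5 lower. The cause was not tested.

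Leaving out each heart in turn gave ranges of -2.12 to -1.69 for Ces1d, -0.36 to -0.21 for Pnpla2, -0.63 to -0.35 for Lipe, -0.61 to -0.45 for Mgll, -1.38 to -1.18 for Lpl, 0.34 to 0.45 for Abhd5, -0.029 to 0.50 for G0s2, 0.10 to 0.58 for Plin2, -0.78 to -0.66 for Plin4 and -0.51 to -0.43 for Plin5. G0s2 changed sign without Ctrl replicate 3 (-0.029) and without cKO replicate 2 (-0.024). Members called higher ranged from 0 (without Ctrl replicate 1 or without Ctrl replicate 2) to 1 and members called lower from 5 to 6. The log2 ratio of Abhd5 to G0s2 ranged from -0.12 (without cKO replicate 1) to 0.54, the perilipin sum from -43.0 to -29.0 FPKM and the lipase sum from -54.5 to -35.5 FPKM. Over all genes, calls were 2014 without both hearts highest in atrial and adipocyte markers, 2828 without Ctrl replicate 3, 2861 without Ctrl replicate 2, at most 3988 without any other single heart and 4315 with all 6, and with scaling to cardiomyocyte markers 8661 were higher and 181 lower, against 2110 and 2205.

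Deviations of hearts with the same replicate number were little correlated (r = -0.055, 0.18 and -0.015), which with 3 hearts a group cannot exclude a pairing. The study's methods speak of littermate controls, and the labels do not say which hearts were littermates. With the replicate block, 1874 genes were higher and 1982 lower, with 1 member higher and 6 lower. Each block held 1 heart of each group, so by construction the block could change standard errors and calls but no fold change. The fold changes were therefore those of the main fit: Ces1d -1.84, Pnpla2 -0.30, Lipe -0.53, Mgll -0.55, Lpl -1.25, Abhd5 0.40, G0s2 0.22, Plin2 0.35, Plin4 -0.74 and Plin5 -0.48.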

Other observations

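Markers of the other cell types of the heart give a setting for these values. Of 6 fibroblast markers, Col1a1 was higher and Dcn lower, with summed FPKM of 150.4 to 175 in Ctrl and 137 to 149.7 in cKO hearts. Of 6 macrophage markers, Csf1r was lower, with sums of 249.9 to 334 and 192 to 288 FPKM. None of the 4 atrial markers was called, their sums being 128 to 2052 FPKM in Ctrl and 575 to 1652 FPKM in cKO hearts. Most of each cKO sum was Nppa, at 469, 1127 and 938 FPKM. The study reports Nppa as a hypertrophy marker that rises in cKO hearts, so these sums do not measure atrial tissue alone. Myl7, another of the 4, was at 679, 98.6 and 18.1 FPKM in Ctrl and 71.8, 170 and 495 FPKM in cKO hearts. In the cardiomyocyte list, Tnnt2, Tnni3, Myl2, Pln and Ryr2 were lower (limma, adjusted p under 0.05), while Actc1, at 4750 ± 1128 and 4336 ± 1939 FPKM, and Actn2, at 556 ± 32.5 and 519 ± 73.8 FPKM, overlapped between groups.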
